A study of Mus musculus with 6 samples.

Results

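The Bnc2 nuclei are a small excitatory subtype of the mouse lumbar spinal cord, named by the study's authors after the zinc finger gene Bnc2. Their members are the nuclei that the deposited annotation gives as neurons of the subtype Bnc2, which are 91 of 6035 neurons (1.51%) and of 18514 nuclei in all. The study's text states 20484 nuclei and 6171 neurons. All samples came from wild-type C57BL/6 mice left paralysed after their thoracic cord was severely contused. In the 3 TESS samples the mice spent 30 min on a treadmill with epidural electrical stimulation, and in the 3 CON samples, labelled paralyzed, they did so without it. The series describes walking under TESS together with drugs that activate the 5-HT1a receptor for serotonin and the D1 receptor for dopamine, and whether the CON mice received these drugs is not clear from it. The labels give the tissue as lumbar cord, while the extraction protocol names the thoracic injury site. They do not say whether a sample is 1 mouse or a pool, so p-values here measure the spread between these samples, which may be technical. The annotation also gives a batch number: CON 1, CON 2 and TESS 1 share one, and each other sample has its own.

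Excitatory neurons of the dorsal horn use glutamate, which is loaded into vesicles mainly by the transporter that Slc17a6 encodes, and they form most of the local circuits that relay touch, itch and pain. Families of these neurons are told apart by their neuropeptides, such as Grp (gastrin-releasing peptide, used in itch circuits), Sst (somatostatin), Tac2 (neurokinin B), Nts (neurotensin) and Cck (cholecystokinin). Lmx1b and Tlx3 are transcription factors that set the glutamatergic fate in the dorsal horn, and Ebf1 and Ebf3 are transcription factors of many developing and adult neurons.

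The nuclei were spread over all 6 samples. CON 1, CON 2 and CON 3 held 16, 15 and 24 of them, and TESS 1, TESS 2 and TESS 3 held 10, 11 and 15. As a share of the neurons of the sample this was 1.34%, 1.37% and 1.94% in CON and 1.36%, 1.03% and 2.13% in TESS. The groups overlapped, with TESS samples both lowest and highest. The mean share was 1.55% ± 0.338 (SD, n = 3) in CON and 1.51% ± 0.568 (SD, n = 3) in TESS, and a two-sided exact permutation test over the 20 assignments of samples gave p = 0.9, where the smallest p this design can give is 0.1. The share among excitatory neurons was 2.90% ± 0.586 (SD, n = 3) in CON and 3.17% ± 1.17 (SD, n = 3) in TESS (exact permutation p = 0.8), so the direction of the difference depended on the denominator. Exact binomial 95% intervals of single samples ran from 0.513% to 3.49%, which covers counting error only.

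**Figure D1:**
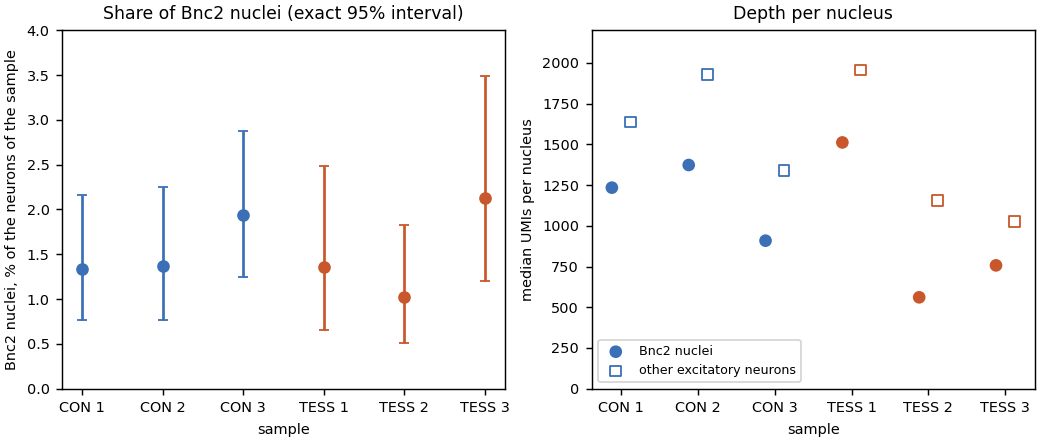
Left, Bnc2 nuclei as a percentage of the neurons of each sample, with exact binomial 95% intervals, for the 3 CON (blue) and 3 TESS (orange) samples. Right, the median number of UMIs per nucleus in Bnc2 nuclei (filled circles) and in the other excitatory neurons (open squares). The intervals of all 6 samples overlap, and the Bnc2 nuclei lie below the other excitatory neurons in 6 of 6 samples.

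Bnc2 nuclei gave fewer UMIs than the other excitatory neurons in every sample. A UMI (unique molecular identifier) stands for 1 captured RNA molecule, and the median nucleus had 1234, 1373 and 908.5 UMIs in CON and 1511.5, 561 and 757 in TESS. The other excitatory neurons of the same samples, 2995 nuclei of 19 subtypes, were deeper in 6 of 6 samples, and the ratio of the medians ranged from 0.486 in TESS 2 to 0.773 in TESS 1. Of the 38 neuron subtypes only 3 had a lower median than the 1054 UMIs of all Bnc2 nuclei. Summed per sample, the nuclei gave 20915, 21242 and 22880 UMIs in CON and 15861, 7136 and 11021 in TESS, 99055 in all over 10375 genes. TESS 2 was the shallowest sample. A count of 0 over all 91 nuclei allows a level of up to 30.3 CPM (the UMIs of a gene scaled by all UMIs of the nuclei), taken as 3 UMIs. The mean mitochondrial share of UMIs was 0.170% to 0.457% per sample, above that of the other excitatory neurons (0.104% to 0.238%) in 6 of 6 samples. No barcode of a Bnc2 nucleus occurred in a second library, while pairs of libraries shared 7 to 20 barcodes over all nuclei.

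The label was checked against its markers. Slc17a6 gave 25 UMIs in 19 nuclei, with 4, 4 and 7 in CON and 5, 4 and 1 in TESS. Its level of 252 CPM (exact Poisson 95% interval of the count 163 to 373, counting error only) was near the mean of 258 CPM over the other excitatory subtypes. After each nucleus was thinned to 300 UMIs, 7.69% of the Bnc2 nuclei held an Slc17a6 UMI, against 7.26% of the other excitatory neurons (median depth 1519 UMIs) and 0.629% of the oligodendrocytes (median depth 433 UMIs). Thinning left out 0 Bnc2 nuclei, 7 other excitatory neurons and 1360 of 8837 oligodendrocytes as too shallow. Without thinning these shares were 20.9%, 34.5% and 1.06%. Slc17a8 gave 1 UMI. Gad1, Gad2 and Slc32a1, which serve synthesis and vesicle loading of GABA, gave 2 UMIs each, and the glycine transporter gene Slc6a5 and the inhibitory factor Pax2 gave none. The glutamatergic marker was thus at the level of other excitatory neurons, and the inhibitory markers were at or below 2 UMIs each.

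Bnc2 itself gave 109 UMIs in 51 of the 91 nuclei. Its level was 1291, 989 and 918 CPM in CON and 1387, 981 and 998 CPM in TESS, against 59 to 95 CPM in the other excitatory neurons of the same samples. The samples of both groups lay in the same range, all far above the other excitatory neurons. The gene is nevertheless not exclusive to the subtype that bears its name: over the nuclei of each subtype it reached 1280 CPM in the Grp subtype and 1278 CPM in the Cck/Cpne4 subtype, against 1100 CPM (interval 904 to 1327) here, which ranks the Bnc2 nuclei 3 of 38. Thinned to 300 UMIs, 28.6% of the Bnc2 nuclei and 23.1% of the Grp nuclei held a Bnc2 UMI, against 2.21% of all other excitatory neurons and 0.12% of oligodendrocytes. In the unthinned data these shares were 56.0%, 78.2%, 5.91% and 0.181%. Bnc2 spans chr4:84275095-84675275 on the minus strand of GRCm38 and overlaps the annotated gene Gm12421 on the same strand.

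The genes that set the Bnc2 nuclei apart are described here without a test, since the authors clustered the nuclei on such genes. Genes were ranked by the log2 ratio of (CPM + 10) in the Bnc2 nuclei to the mean of the other 19 excitatory subtypes, among the 487 genes with at least 30 UMIs in the Bnc2 nuclei, in at least 20% of them and in at least 5 samples. The 25 highest are called the leading genes below. They ran from a log2 ratio of 4.24 for C1qtnf7 to 1.84 for Cntnap5c. Of the 25, 20 had their highest level of the 38 subtypes in the Bnc2 nuclei, though for 10 of these 20 the level of the next subtype lay inside the counting interval of the gene. The next subtype lay below that interval for C1qtnf7, C1ql1, Pde3a, Prkd1, Cpne7, Pde11a, Adam12, Calb2, Frmpd1 and Khdrbs3. Of the 25, 24 were higher than in the other excitatory neurons in 6 of 6 samples, the exception being Calb2 with 5 of 6. The genes were ranked on these same samples, so this count is a description only. The next genes below the limit were Cpne8, Cspg5 and Mtss1 with log2 ratios of 1.75, 1.68 and 1.66, so the limit marks no gap.

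The leading genes are described by what their products are known to do, in groups made after their values were seen. C1qtnf7, which encodes a secreted protein of the C1q and TNF family (chr5:43515538-43618803, plus strand), was at 430, 330 and 393 CPM in CON and 315, 561 and 544 CPM in TESS, against 1 to 12 CPM in the other excitatory neurons. Its 404 CPM (interval 288 to 550) over all nuclei rested on 40 UMIs in 31 nuclei, and the next subtype, Cck/Cpne4, had 192 CPM. All 6 samples stood far above the comparison. C1ql1, a secreted C1q-like protein that organises synapses (chr11:102939264-102946688, minus strand), was at 813, 377 and 350 CPM in CON and 189, 140 and 91 CPM in TESS, with 38 UMIs in all. Here the CON and TESS samples did not overlap, which is taken up with the TESS comparison below. C1ql1 also marks oligodendrocyte precursors, whose other listed markers were near 0 in these nuclei: Olig1 gave 2 UMIs and Pdgfra, Cspg4 and Vcan none.

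Other leading genes with extracellular products were Fbn2 (fibrillin, a protein of microfibrils) at 1181 CPM and a log2 ratio of 2.57, Adam12 (a metalloprotease) at 596 CPM and 2.82, and Ltbp1 (which binds latent TGF-beta) at 353 CPM and 2.17. Entpd3, an enzyme that breaks down extracellular nucleotides, was at 697 CPM with a log2 ratio of 2.35. In the Npyr-1 subtype, the most like the Bnc2 nuclei, Fbn2 reached 991 CPM and Entpd3 reached 557 CPM, while Ltbp1 was at 23.1 CPM.

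Prkd1, Pde11a and Pde3a encode enzymes of intracellular signalling. Prkd1, encoding the diacylglycerol-activated protein kinase D1 (chr12:50341231-50649098, minus strand), gave 127 UMIs in 61 nuclei. It was at 1387, 1271 and 1049 CPM in CON and 1513, 1401 and 1180 CPM in TESS, against 93 to 159 CPM in the other excitatory neurons. The samples of both groups overlapped, all above the other excitatory neurons. The Grp subtype, however, had 859 CPM, with a Prkd1 UMI in 71.8% of its nuclei (median depth 1496.5 UMIs) against 67.0% here, or 19.2% against 30.8% when thinned to 300 UMIs, and oligodendrocytes had 0.600%, or 0.455% when thinned. Pde11a and Pde3a encode phosphodiesterases, which degrade cyclic nucleotides. Pde11a (chr2:75989141-76338774, minus strand) was found in 80 of 91 nuclei, at 1817, 2118 and 2142 CPM in CON and 2459, 3503 and 2631 CPM in TESS. The second, Pde3a, was at 414 CPM, 11.1-fold the mean of the other excitatory subtypes. The normalized Pde11a levels of CON and TESS did not overlap, and its test is given below. Pde11a was also high in the like subtypes, with 1404 CPM in Npyr-1, 898 CPM in Grp and 905 CPM in Trh.

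Other leading genes encode calcium-binding proteins, membrane proteins and regulators of transcription or splicing. Cpne7, a copine that binds membranes in the presence of calcium, was at 525 CPM with a log2 ratio of 3.00. Calb2 encodes calretinin, a calcium buffer used to mark groups of dorsal horn interneurons, and was at 394 CPM with 39 UMIs in 27 nuclei. It gave 6, 12 and 11 UMIs in CON and 7, 0 and 3 in TESS, so the exception in TESS 2 is a sample with no Calb2 UMI among 7136 UMIs, where 3 UMIs would be 420 CPM. Tmem132c and Tmem132b, related transmembrane proteins, had log2 ratios of 2.89 and 2.41. Both were high in the Trh subtype as well (327 and 414 CPM) and low in Npyr-1 (5.78 and 14.4 CPM). Gfra1, the co-receptor for the growth factor GDNF, was at 515 CPM, and Ptprk, a receptor tyrosine phosphatase, at 888 CPM, where the inhibitory Pnoc subtype had 1499 CPM. Casz1, a zinc finger transcription factor, had a log2 ratio of 2.11, and Khdrbs3, an RNA-binding regulator of splicing, one of 2.53.

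Reads of genes that overlap on the same strand may not be told apart. For overlaps on opposite strands this holds only if the counting did not use strand, which was not given. Of the 25 leading genes, 19 overlap another annotated gene on either strand. Prkd1, Calb2, Sntb1, Tmem132b, Entpd3 and Svil overlap none. C1ql1, Pde11a, Frmpd1, Fbn2, Casz1, Grp, Kcnh1, Gas7, Ptprk, Gfra1 and Cntnap5c overlap only genes on the opposite strand.

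**Figure D2:**
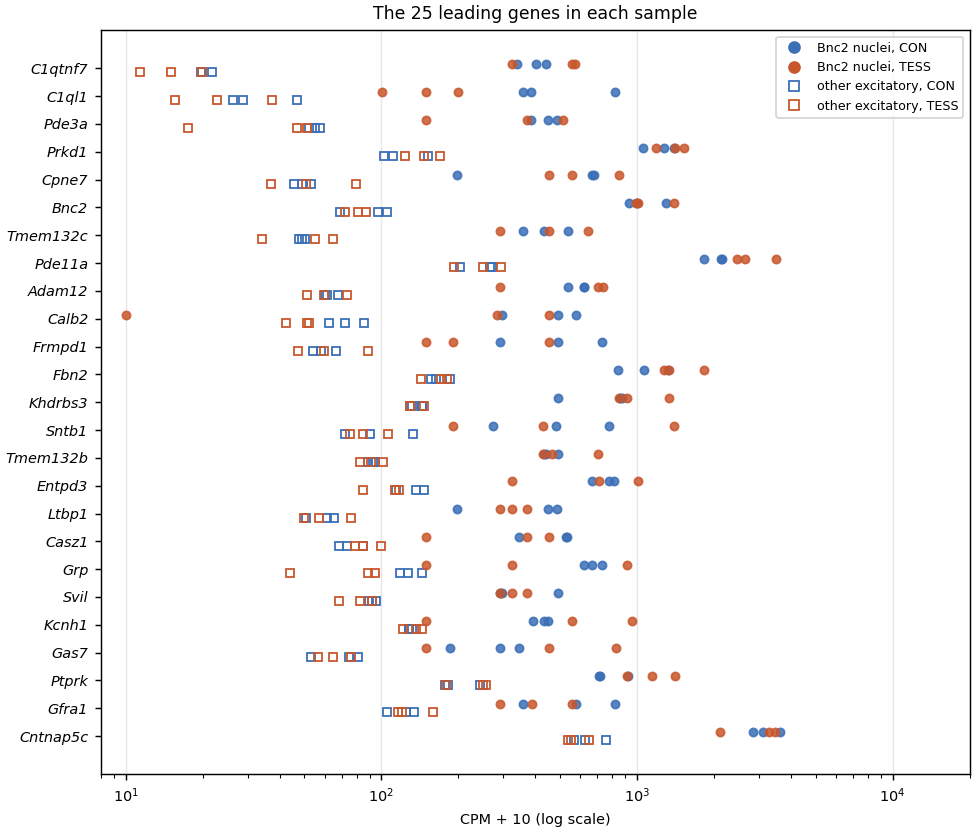
Level of the 25 leading genes, as CPM + 10 on a log scale, in each of the 6 samples, for Bnc2 nuclei (filled circles) and for the other excitatory neurons (open squares), in CON (blue) and TESS (orange). The circles lie to the right of the squares for 24 genes, the exception being the Calb2 point of TESS 2 with no UMI.

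Since leading genes had to be found in at least 20% of the Bnc2 nuclei and were chosen for their high level there, their number per nucleus is given as a description only. The median Bnc2 nucleus held UMIs of 11 of the 25, with a range of 2 to 20, and 87 of 91 nuclei held at least 5. The median of the other excitatory nuclei was 3, although these were deeper. By sample the medians were 12.5, 14 and 10 in CON and 14, 8 and 9 in TESS, and they were lowest in TESS 2 and TESS 3, the samples with the fewest UMIs per nucleus. The 40 nuclei with no Bnc2 UMI held a median of 10 of the other 24 leading genes, and the 51 nuclei with one held 11, at median depths of 906 and 1209 UMIs. Grp and Calb2 were found in 40 and 27 nuclei, and in the same nucleus in 15.

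Several genes abundant in other excitatory neurons were nearly absent. Among the 1898 genes with a mean of at least 100 CPM over the other excitatory subtypes, the 10 with the lowest log2 ratio were Tac2, Gm28928, Nts, Fam19a1, Luzp2, Nell1, Dpp10, Cck, Sorcs1 and Nmu, each lower than in the other excitatory neurons in 6 of 6 samples. They were ranked on these same samples, so this agreement is a description only. The next 3 were Cntn5, Zcchc16 and C1ql3, at log2 ratios of -4.66, -4.54 and -4.48. Tac2, Nts, Luzp2, Nell1 and Nmu gave no UMI in any sample. Against the limit of 30.3 CPM that no UMI allows, Tac2 was at least 62.6-fold lower than the mean of the other excitatory subtypes, Nts at least 17.2-fold and Nmu (neuromedin U) at least 8.05-fold. Cck gave 1 UMI in CON 1 and 1 in CON 3, which is 2.23% of the mean level of the other excitatory subtypes (counting interval 0.270% to 8.05%). Dpp10, an auxiliary subunit of A-type potassium channels, gave 2 UMIs, both in TESS 3, or 2.09% (0.253% to 7.55%) of that mean. Fam19a1, which encodes a small secreted protein, gave 2 UMIs, or 1.43% (0.173% to 5.15%). Some of these low levels were shared with the like subtypes Npyr-1, Grp and Trh. Tac2 was there at 23.1, 0 and 120 CPM and Nell1 at 26.0, 0 and 49.1 CPM. By contrast Dpp10 (494, 1041 and 742 CPM) and Luzp2 (251, 111 and 371 CPM) were not near 0 there. Gm28928 was low only in Npyr-1 (43.3, 2504 and 2585 CPM), and Cck was high in Trh (5851 CPM). The mean of Tac2 includes 19374 CPM in the Tac2/Tacr3 subtype.

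**Figure D3:**
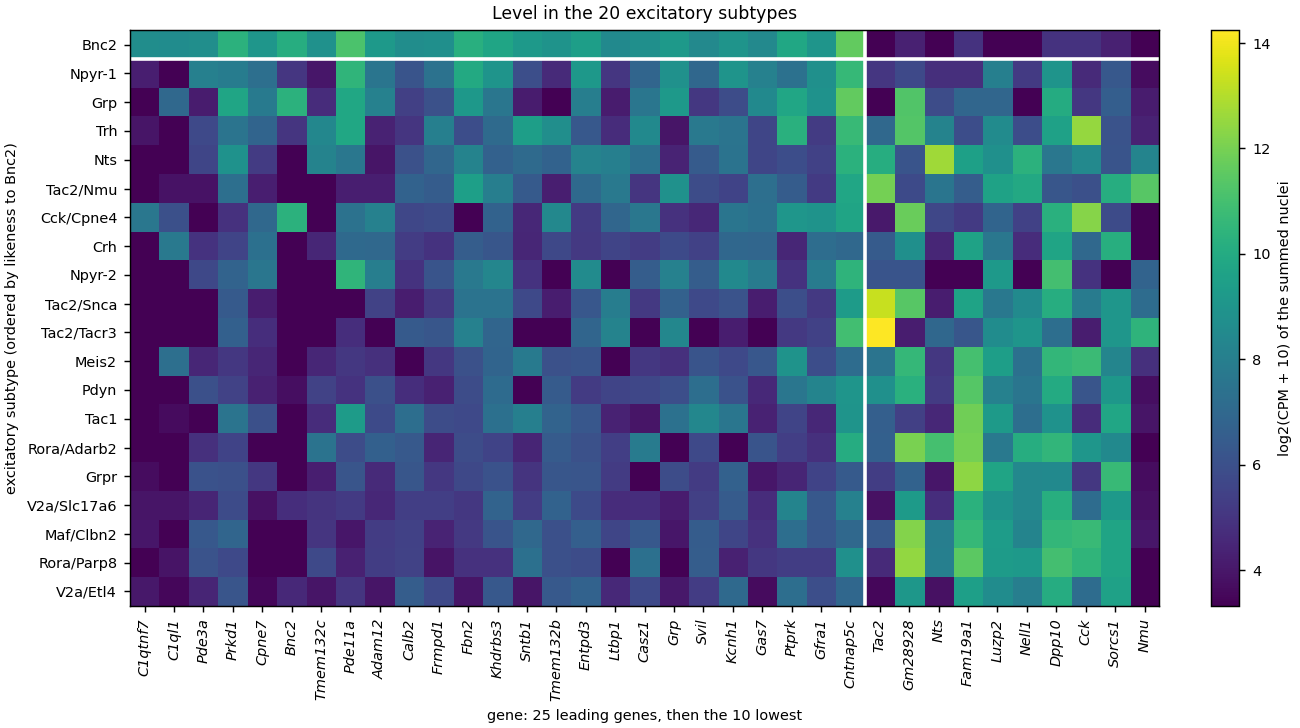
Level, as log2(CPM + 10) of the summed nuclei, of the 25 leading genes and the 10 lowest genes (columns) in the 20 excitatory subtypes (rows), with Bnc2 at the top and the others ordered by their correlation with it. The top row is bright over the leading genes and dark over the lowest, and the Npyr-1, Grp and Trh rows share parts of both sets.

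The excitatory subtypes with the most similar profiles were Npyr-1 (318 nuclei), Grp (78 nuclei) and Trh (133 nuclei), with Pearson correlations of log2(CPM + 10) of 0.805, 0.762 and 0.746 over the 2000 genes with at least 10 UMIs in the Bnc2 nuclei. These correlations are across genes, which are not independent replicates, and the subtypes share libraries. Of the 20 leading genes that were highest in the Bnc2 nuclei, Npyr-1 was the next highest subtype for 5, Grp for 4 and Trh for 4. The differences from each are given as descriptions.

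The genes named next are examples, chosen after their values were seen, from the 8 with the largest log2 ratio in each direction. Against Npyr-1, these were Bnc2 itself (1100 against 23.1 CPM), the metabotropic glutamate receptor gene Grm5 (1646 against 133 CPM) and Cdh13, a cadherin (818 against 107 CPM). In the other direction Nmur2, a neuromedin U receptor, was at 30.3 against 731 CPM, and Mctp2 and Zfp536 had no UMI here against 312 and 257 CPM. Against the Grp subtype, Kcnip4, a potassium channel-interacting protein, was at 12690 against 1137 CPM. Kirrel3, an adhesion molecule, was at 2403 against 63.6 CPM, and Col11a1, a collagen, at 858 against 7.95 CPM. The muscarinic receptor gene Chrm2 (20.2 against 970 CPM) and the receptor gene Trhr (30.3 against 986 CPM) were higher in the Grp subtype. Against Trh, the Bnc2 nuclei lacked Cck (20.2 against 5851 CPM) and Trh (no UMI against 1510 CPM). Each of these differences, ranked on the same samples, had the same direction in 6 of 6 samples.

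Gene groups relevant to dorsal horn neurons are given by counts. Over all 3952 genes with a mean of at least 50 CPM in the 38 subtypes, 3.80% were at least 2-fold higher in the Bnc2 nuclei than the mean of the other excitatory subtypes and 14.3% at least 2-fold lower, on the (CPM + 10) scale, with a median log2 ratio of -0.05. Each list was reduced to its members above the same 50 CPM. These counts carry no test.

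**Figure D4:**
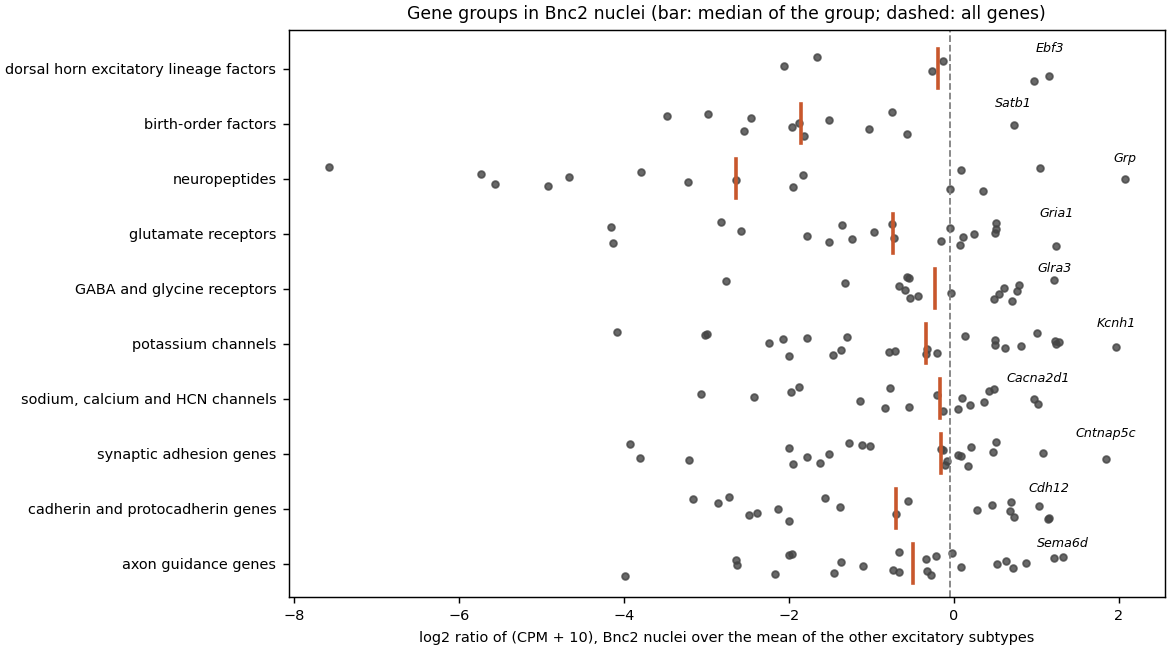
Log2 ratio of (CPM + 10) in Bnc2 nuclei over the mean of the other excitatory subtypes for the members of 10 gene groups with a mean of at least 50 CPM over the 38 subtypes. Each dot is a gene, the orange bar is the median of the group, the dashed line is the median of all such genes (-0.05), and the highest gene of each group is named. Neuropeptides and birth-order factors have the lowest medians, at -2.64 and -1.85.

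Of the 28 neuropeptide genes, 17 gave no UMI, and 2 of the 15 above the level limit were at least 2-fold higher and 10 at least 2-fold lower. The higher pair were Grp and Sst. Grp was at 717, 659 and 612 CPM in CON and 315, 140 and 907 CPM in TESS, the highest level of the 38 subtypes at 596 CPM, though its interval of 453 to 768 CPM includes the 580 CPM of the Grp subtype. The TESS samples were spread on both sides of the CON samples. Sst was found in 84 of 91 nuclei, at 5020, 7438 and 6031 CPM in CON and 5359, 2522 and 5626 CPM in TESS, against 1058 to 2370 CPM in the other excitatory neurons. It ranked 4 of the 38 subtypes. Its lowest value was in TESS 2, the shallowest sample, which still lay above the comparison. Adcyap1, encoding the peptide PACAP, was at 283 CPM against a mean of 219 CPM. Penk, the enkephalin precursor gene, gave 1 UMI, or 3.75% (0.095% to 20.9%) of the mean of the other excitatory subtypes, and Tac1, Trh, Pdyn, Gal and Npy gave none.

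Among receptors for peptides, 18 of 31 genes gave no UMI. Crhr1, the receptor for corticotropin-releasing hormone, gave 16 UMIs spread as 3, 3 and 2 in CON and 3, 2 and 3 in TESS. Its 162 CPM (interval 92.3 to 262) was the highest of the 38 subtypes, with 72.8 CPM in the next, Cck/Cpne4, and a mean of 18.7 CPM over the other excitatory subtypes. Thinned to 300 UMIs, 5 of 91 Bnc2 nuclei and 0.469% of the other excitatory neurons held a Crhr1 UMI, against 0.080% of oligodendrocytes. Unthinned, the shares were 16.5%, 3.61% and 0.170%. Npr1, a natriuretic peptide receptor, gave 10 UMIs and also ranked first, at 101 CPM, but its interval (48.4 to 186) includes the 92.7 CPM of Cck/Cpne4. Tacr3 (neurokinin B receptor) and Npy1r (neuropeptide Y receptor) were at 151 and 101 CPM, against means of 50.7 and 33.6 CPM in the other excitatory subtypes, while Nmur2 had 3 UMIs. The gastrin-releasing peptide receptor gene Grpr gave no UMI.

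Some factors of dorsal horn lineages were found, and the listed factors of ventral lineages were not. Of the 14 dorsal horn factors in the table, 5 gave no UMI. Among the 6 above the level limit, 1 was at least 2-fold higher and 2 were at least 2-fold lower. All 20 listed factors of ventral and deep lineages gave no UMI, though their mean over the other excitatory subtypes summed to only 40.3 CPM. Of the 14 dorsal horn factors in the table, Ebf1 was found in 91 of 91 nuclei, at 7889, 7061 and 7386 CPM in CON and 7692, 8408 and 8620 CPM in TESS, against 2715 to 3289 CPM in the other excitatory neurons. Every sample lay far above the comparison, and only 2 subtypes had more Ebf1. Ebf3 was at 737 CPM, 2.27-fold the mean of the others, and was the 1 factor counted as at least 2-fold higher. Against that mean of the other excitatory subtypes Ebf1 was thus less than 2-fold higher. Lmx1b and Tlx3 gave 9 and 5 UMIs, at 90.9 and 50.5 CPM against 111 and 52.3 CPM, means that lie inside their counting intervals (41.5 to 172 and 16.4 to 118 CPM). The 20 birth-order factors, which mark early- or late-born and local or projecting neurons, had a summed level of 949 CPM, the lowest of the 38 subtypes. Of the 12 above the level limit, none was at least 2-fold higher and 9 were at least 2-fold lower. Tshz3, a zinc finger factor, gave 2 UMIs, or 6.20% (0.751% to 22.4%) of the mean of the others, Zfhx3 gave none, and the highest member, Satb1, was at 252 against 149 CPM.

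Receptor genes for glutamate, GABA and glycine lay on both sides of the other excitatory neurons. Of the 20 glutamate receptor genes above the level limit, 1 was at least 2-fold higher and 8 at least 2-fold lower. The AMPA receptor subunit gene Gria1 was the higher member, at 765, 1506 and 1530 CPM in CON and 820, 1261 and 1089 CPM in TESS, against 385 to 465 CPM in the other excitatory neurons. Gria3, another AMPA subunit, gave a single UMI, in CON 2, which is 2.96% (0.075% to 16.5%) of the mean of the others and the lowest level of the 38 subtypes. The NMDA subunit gene Grin2a was at 90.9 against 594 CPM. Gria3 was low in the like subtypes Npyr-1 and Trh too, at 60.7 and 49.1 CPM. Among 16 receptor genes for GABA and glycine, Glra3 was 2.39-fold the mean of the others and ranked second, whereas Glra1 was at 202 against 519 CPM and Glra2 had no UMI.

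Ion channel genes likewise split. Of 25 potassium channel genes, 5 were at least 2-fold higher and 10 at least 2-fold lower. Kcnip4 was found in 90 of 91 nuclei, at 12690 CPM against 5261 CPM, and was higher still in Npyr-1 at 17428 CPM. Kcnj3, a subunit of G protein-gated channels, and Kcnt1, a sodium-activated channel, ranked first of the 38 subtypes at 1090 and 283 CPM, with 884 and 269 CPM in Npyr-1. For Kcnt1 the level of Npyr-1 lies within the counting error of the level here. The second sodium-activated channel gene, Kcnt2, gave 2 UMIs, or 4.01% (0.486% to 14.5%) of the mean of the others. Kcnq3, which carries M-current, was the lowest of the 38 subtypes at 60.6 against 563 CPM, and Kcnq5 was at 80.8 against 710 CPM. Of 18 sodium, calcium and HCN channel genes, 1 was at least 2-fold higher (Cacna2d1, the calcium channel subunit that binds gabapentin, at 3190 against 1566 CPM) and 5 were at least 2-fold lower. Scn1a was the lowest of the 38 subtypes, with 5 UMIs and 50.5 against 496 CPM.

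Adhesion and guidance genes held several of the lowest levels of any subtype. Of 23 synaptic adhesion genes, 2 were at least 2-fold higher and 11 at least 2-fold lower, and of 19 cadherin and protocadherin genes 3 were higher and 9 lower. Tenm2 (teneurin), Il1rapl1, Cntnap2 and Pcdh9 each had the lowest level of the 38 subtypes, at 111, 101, 1090 and 495 CPM against means of 1829, 1539, 4246 and 3337 CPM in the other excitatory subtypes. Dcc, the netrin receptor, was also the lowest, at 101 against 1743 CPM. For these 5 genes every sample was below the other excitatory neurons. Npyr-1 nuclei, which were of like depth (median 1029.5 UMIs), had like levels of Tenm2 (118 CPM) and Dcc (173 CPM) but more Cntnap2 (3394 CPM). The part that depth per nucleus plays in these levels was not tested. In the other direction Cntnap5c was at 3150 CPM, though its interval (2810 to 3519 CPM) includes the 3116 CPM of the Grp subtype. The guidance cue gene Sema3a, with 18 UMIs, was at 182 CPM, 8.87-fold the mean of the others. This was the highest of the 38 subtypes, though the Sema3a interval (108 to 287 CPM) includes the 149 CPM of motor neurons. Cdh11 and the plexin gene Plxna4 also ranked first, at 293 and 535 CPM, with the next subtypes at 267 and 480 CPM inside their intervals.

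Receptors for the agonists named in the study were at the limit of detection. Drd1, the dopamine D1 receptor gene, gave 6 UMIs in 6 nuclei, with 3, 1 and 0 in CON and 1, 1 and 0 in TESS. Its 60.6 CPM (interval 22.2 to 132) was the highest of the 38 subtypes, but the interval includes the 26.5 CPM of the next, Cck/Cpne4. The share of nuclei with a Drd1 UMI was 6.59% (exact binomial 95% interval 2.46% to 13.8%), against 0.501% of the other excitatory neurons and 0 of 8837 oligodendrocytes. At 300 UMIs per nucleus 1 Bnc2 nucleus (1.10%) and 0.033% of the other excitatory neurons held one. Htr1a, the 5-HT1a receptor gene, gave no UMI, which by a limit of 3 counts, not the exact interval used for Drd1, allows up to 30.3 CPM and up to 3.30% of nuclei with a UMI (the exact 95% upper bounds are 37.2 CPM and 3.97%), and its mean in the other excitatory subtypes was 2.97 CPM, below what could be seen here. Of 17 serotonin and dopamine receptor genes, 10 gave no UMI. Htr2c gave 1 UMI, or 3.77% (0.096% to 21.0%) of the mean of the other excitatory subtypes.

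RNA of other cell types was present at low levels. The 9 oligodendrocyte markers summed to 97 UMIs, or 979 CPM against a mean of 938 CPM in the other excitatory subtypes, of which Mbp gave 39 UMIs. Astrocyte, microglia, endothelial, and pericyte and fibroblast markers gave 25, 13, 1 and 2 UMIs. The summed levels were 252, 131, 10.1 and 20.2 CPM, against 187, 145, 12.5 and 7.11 CPM in the other excitatory subtypes. Whether nuclei with the most UMIs are doublets was not tested.

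TESS was then compared with CON within the Bnc2 nuclei, which is the comparison the series was made for. UMIs were summed per sample, and edgeR's quasi-likelihood test with Benjamini-Hochberg adjustment was fitted to the 256 genes with enough counts. It called 0 genes at an adjusted p below 0.05 (0% of those tested), with 19 at an unadjusted p below 0.05 and a lowest adjusted p of 0.51. DESeq2 also called 0, with 3 at an unadjusted p below 0.05. The normalized levels of the groups did not overlap for 36 genes, 16 higher and 20 lower in TESS, which is 14.1% of the genes tested. The median 95% interval of a log2 change, not adjusted for the number of genes, reached 0.67 to each side. Smaller changes in a typical gene were not detectable here. Some larger ones also did not pass, such as 0.92 for Dgki (edgeR adjusted p = 0.51), so the count of 0 does not exclude larger changes. Genes with few UMIs were not tested at all. The median log2 change of the genes tested was 0.004.

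The 5 genes with the smallest p in each direction are named although none passed. Towards higher values in TESS these were Nedd4l (a ubiquitin ligase that regulates channels), Opcml (a cell adhesion protein), Dgki (a diacylglycerol kinase), Cntnap2 and Khdrbs2. Nedd4l was at 526, 706 and 830 CPM in CON and 1450, 1261 and 1089 CPM in TESS. Its groups did not overlap, and the log2 change was 0.84 ± 0.30 (SE), with an edgeR adjusted p of 0.51. Dgki was at 335, 612 and 524 CPM in CON and 757, 981 and 1270 CPM in TESS (log2 change 0.92 ± 0.38, edgeR adjusted p = 0.51), also without overlap. Cntnap2, among the genes lowest in this subtype, was at 1148, 894 and 656 CPM in CON and 1135, 2522 and 1270 CPM in TESS, where the groups overlapped and TESS 2 stood highest.

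Towards lower values in TESS the genes were Cdh8, Prkg1 (the cyclic GMP-dependent protein kinase), Magi2 (a synaptic scaffold), Gpm6a (a neuronal membrane glycoprotein) and the nuclear RNA Malat1. Cdh8, an adhesion gene at 2.06-fold the mean of the other excitatory subtypes, was at 2008, 2401 and 1967 CPM in CON and 1513, 1401 and 817 CPM in TESS. No TESS sample reached the lowest CON sample, and the log2 change was -0.81 ± 0.26 (edgeR adjusted p = 0.51). Prkg1 was at 2295, 3013 and 2666 CPM in CON and 1639, 1541 and 1905 CPM in TESS, with a log2 change of -0.69 ± 0.23 (edgeR adjusted p = 0.51) and no overlap. All 10 of these genes kept their direction within the batch number that holds both groups (CON 1, CON 2 and TESS 1). There is no replicate of TESS there and no test. The genes were chosen on all 6 samples, these included, so their direction there is no independent support. For Cntnap2 the log2 change there was 0.04, against 0.68 over all samples.

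**Figure D5:**
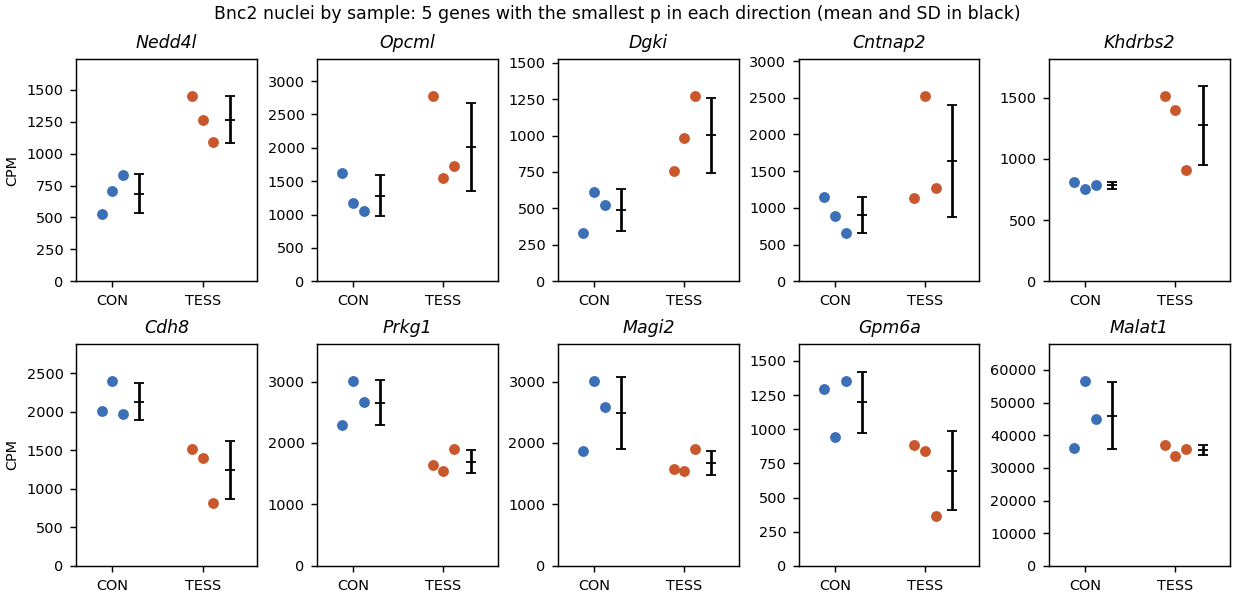
CPM of Bnc2 nuclei in each sample for the 5 genes with the smallest p in each direction of the TESS comparison, with the mean and SD of each group (n = 3) in black. The groups are apart for Nedd4l, Dgki, Khdrbs2, Cdh8, Prkg1 and Gpm6a, and none of the 10 genes passed the adjusted threshold (edgeR adjusted p = 0.51).

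None of the genes that mark the subtype passed the test between the groups. Of the 25 leading genes 12 had enough counts for the test, 8 with higher and 4 with lower values in TESS, and none was called. Over all 256 genes tested 129 were higher and 127 lower. The median log2 change of the 12 was 0.09, against 0.004 for all genes tested. The log2 change of Bnc2 was 0.08 ± 0.29 (edgeR adjusted p = 0.92, interval -0.49 to 0.66). It was 0.11 ± 0.27 for Prkd1 and 0.39 ± 0.22 for Pde11a (edgeR adjusted p = 0.91 and 0.67). Grp was at a log2 change of -0.54 ± 0.47 and Sst at -0.43 ± 0.19 (edgeR adjusted p = 0.84 and 0.51). The summed level of the 25 genes was 19890, 18642 and 17395 CPM in CON and 21436, 17377 and 20234 CPM in TESS, with overlap. C1ql1, with 17, 8 and 8 UMIs in CON and 3, 1 and 1 in TESS, was below the count limit of the test. With a minimum count of 5 it gave a log2 change of -1.79 ± 0.61 with an edgeR adjusted p of 0.37.

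By gene group, directions are set beside the 129 higher and 127 lower of all 256 genes tested. Of 10 glutamate receptor genes tested, 5 had higher and 5 lower values in TESS (median log2 change 0.02). Of 29 potassium channel genes 6 were tested, all with higher values (median 0.13). Their log2 changes ran from 0.01 ± 0.17 (SE) for Kcnip4 to 0.56 ± 0.49 for Kcnd3. None of these genes was called. The 2 neuropeptide genes tested, Grp and Sst, had lower values, and of the 8 axon guidance genes 3 were higher and 5 lower. Immediate early genes, which neurons switch on within minutes of strong activity, were hardly seen. Of the 29 measured, 25 gave no UMI, among them Fos, Junb, Egr1, Nr4a1 and Arc. Each of these allows up to 30.3 CPM, more than its mean in the other excitatory subtypes (at most 14.2 CPM, for Fos), so no statement about their level was possible at this depth. Jund gave 8 UMIs, 3 of them in TESS 2, and Per1 gave 4. Neither was tested.

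Whether TESS acted differently in Bnc2 nuclei than in the other excitatory neurons was tested as an interaction, in an edgeR model that also fitted each sample. In the other excitatory neurons alone, which are other nuclei of the same samples, edgeR called 82 of 9403 genes (0.872%). Most of these were lower in TESS, with 20 called higher and 62 called lower. Of the 256 genes tested in Bnc2 nuclei 9 were among them, all with negative log2 changes in both: Gpm6a, Sst, Rtn1, Resp18, Ly6h, Camkv, Grp, Slc16a11 and Itm2b. The 256 are limited to genes with high counts, so their share is not comparable with the 0.872%. Whether the shared direction exceeds that of the called genes at large was not tested. For Grp the log2 change was -0.95 in the other excitatory neurons and -0.54 in Bnc2 nuclei, and for Resp18, a secretory-pathway protein, -0.66 and -0.72. The interaction itself called 0 of 5434 genes (0%), with 219 at an unadjusted p below 0.05, and DESeq2 called 0, with 145. A gene could enter this test on its counts in the other excitatory neurons alone, while only 256 had enough counts in Bnc2 nuclei. Tac2, Nts, Luzp2, Nell1 and Nmu entered with no UMI in the Bnc2 nuclei, so no difference could be called for them. For genes with few UMIs in the Bnc2 nuclei the count of 0 therefore says little. Against only the Npyr-1, Grp and Trh subtypes edgeR called 0 of 615 genes, with 26 at an unadjusted p below 0.05. No TESS change was therefore shown to be particular to the Bnc2 nuclei.

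The smallest interaction p belonged to Mbp, the myelin basic protein gene of oligodendrocytes. It gave 8, 15 and 12 UMIs in the Bnc2 nuclei of CON and 3, 0 and 1 in those of TESS, with a difference in log2 change of -2.71 ± 0.70 (edgeR adjusted p = 0.55). Its level in the other excitatory neurons was 271 to 338 CPM in CON and 289 to 407 CPM in TESS. The 9 oligodendrocyte markers together ranged from 908 to 1224 CPM in CON and from 561 to 1089 CPM in TESS, with overlap. The next genes with lower values in TESS were Cdh4 (7, 4 and 3 UMIs in CON, none in TESS), Tcf25 (3, 3 and 7 against none), Reep1 (5, 8 and 6 against 0, 0 and 1) and Zc3h15 (2, 10 and 2 against none). On the other side stood Pitpnc1 (2, 1 and 0 UMIs in CON, 6, 1 and 6 in TESS), RP24-236C17.2, Pex14, Nebl (5, 3 and 5 against 15, 5 and 5) and Tm9sf3. All rest on few UMIs and none passed the adjusted threshold, the lowest edgeR adjusted p among them being 0.55.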

How the data were processed

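Single-nucleus RNA was counted in 6 samples, 3 CON and 3 TESS. The authors deposited UMI counts per gene and nucleus with their annotation of cell type, subtype and batch, and a mitochondrial fraction per nucleus, a deposited value that was used only to describe the nuclei. Per the submitters' processing notes Cell Ranger 2.2.0 and Seurat 3 were used, with the builds mm10 and GRCm38. Nucleus filters, intron counting, strandedness and the meaning of batch numbers were not given in the sources used here. Libraries used 10x version 2 chemistry with 5000 nuclei loaded, per the labels' protocols.

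UMIs of the Bnc2 nuclei and of the other excitatory neurons were summed per sample. Excitatory subtypes are those, motor neurons aside, whose summed CPM of the vesicular glutamate transporters exceeds that of Gad1, Gad2, Slc32a1 and Slc6a5 (20 subtypes, with 17 inhibitory and 1 cholinergic). Tests used edgeR 4.0.16 in R 4.3.3 (TMM, filterByExpr with a minimum count of 10, quasi-likelihood F test, Benjamini-Hochberg adjusted p below 0.05). An SE was taken as the log2 change over the root of its F statistic, and printed CPM use all UMIs of the nuclei as total. DESeq2 1.42.0 was an alternative. Only the main edgeR fits were run on simulated counts, and DESeq2 and the other alternatives were not. The simulation used a fixed dispersion not taken from the data, and no effect shared by the cell groups of a sample. Its outcome is not reported here. The replicate numbers do not mark a shared animal or day in the labels.

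The members, gene lists and naming rule were chosen with earlier results of these data known. The named genes are the 25 leading and 10 lowest genes, the 5 with the smallest p per direction where fewer were called, the highest and lowest members of each list, and Fos, Junb, Egr1, Per1, Nr4a1, Arc, Nts, Gal, Htr1a and Drd1. Other list members are named as examples, chosen after their values were seen, and a few genes that the rule covers are not reported here. Coordinates are from GENCODE vM21 (GRCm38), in which 19153 of 19954 symbols (96.0%) match 1 gene.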

Additional observations from a re-analysis of the deposited data

How the results depend on the processing

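The count of genes called between TESS and CON stayed at 0 under the 14 alternatives run (DESeq2, RLE size factors, no filter on low counts, a minimum count of 5, leaving out each sample, a batch term, the replicate block, nuclei with at least 500 UMIs, and without the 5% of nuclei with the most UMIs), with a lowest edgeR adjusted p of 0.10, without CON 1. The count for the interaction stayed at 0 under its 14 alternatives. The 10 named genes of each comparison kept their direction in 150 of 150 and 132 of 132 refits or batch values. They were chosen for the smallest p in these same counts, so this is no independent support, and none passed in any refit. Of the interaction genes only Nebl and Mbp could be refitted against the Npyr-1, Grp and Trh subtypes. The number of leading genes shared with the 25 reported ranged from 19 (without CON 1) to 25 over samples left out, and was 23 against the pooled sum of the other excitatory neurons and 24 to 25 under other pseudocounts. Of the 10 lowest genes 7 to 10 were shared over samples left out, but only 5 with a pseudocount of 1 and 6 with one of 50. Counting the Fxyd6 and V1/V2b/Slit2 subtypes as excitatory, an alternative chosen after seeing the data, left 25 of 25 and called 0 genes.

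The difference in the share of neurons (TESS minus CON, -0.0437 percentage points) changed sign as a share of excitatory neurons (0.2696) and within batch 3 (0.005), and ranged from -0.3571 to 0.1967 with each sample left out. With the replicate block the count of called genes was also 0, and same-numbered samples did not deviate together (correlations of 0.06, 0.05 and -0.13). The depth of 7136 to 22880 UMIs per sample limits the tests to 256 genes.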

Other observations

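Delayed activity-response and glucocorticoid-response genes belong in no comparison above. Of the 18 delayed activity-response genes, Scg2 (a secretory granule protein) was at 939 CPM against a mean of 618 CPM in the other excitatory subtypes, and Sorcs3 (a sorting receptor) at 626 against 277 CPM. Only these 2 were tested between TESS and CON, with log2 changes of -0.64 ± 0.33 and 0.21 ± 0.41 and edgeR adjusted p of 0.65 and 0.87. Bdnf gave 7 UMIs. The glucocorticoid receptor gene Nr3c1 gave 10 UMIs, at 101 against 38 CPM and ranking second of the 38 subtypes, and Fkbp5 and Sgk1, targets of the receptor, gave 7 and 15 UMIs, too few to test.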
